A study of Mus musculus with 12 samples.

Results

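Day 4 of reprogramming was compared with the starting fibroblasts across the transcriptome. The comparison set 3 libraries of 4F2A cells at day 4 (D4) against 3 libraries of 4F2A mouse embryonic fibroblasts (MEF), 6 of the 12 libraries of the series. 4F2A cells carry a transgene, switched on by doxycycline, for the factors Oct4 (gene Pou5f1), Sox2, Klf4 and Myc. Per the labels' protocols the fibroblasts were taken from male embryos homozygous for 4F2A at 13.5 days post coitum, and the culture medium held LIF and doxycycline at 2 μg/mL. That text stands with the MEF libraries too, so the labels do not say whether the fibroblasts were harvested without doxycycline. D4 also carried the label OE-NC, the control of an overexpression, which MEF did not, so day 4 of reprogramming and the control treatment cannot be told apart. The libraries with Dux overexpression (D4_DUX) and the induced pluripotent stem cells (iPSC) entered the model only for its estimate of spread. Genes with at least 1 FPKM (fragments per kilobase of transcript, scaled to sequencing depth) in 3 or more of these 6 libraries entered the test, 14923 of the 40384 genes in the table, of which 12068 were protein-coding.

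Reprogramming of fibroblasts by these factors is known to pass through stages. Fibroblast genes are turned down first, cells then take on epithelial adhesion genes in a mesenchymal-to-epithelial transition, and the network of pluripotency genes around Nanog is switched on late and in few cells. Cultures in between hold a mixture of cells, so a bulk library averages over cells that have moved and cells that have not.

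Between 22530000 and 28140000 fragments stood behind each of the 6 libraries, a depth worked out from the step size of the FPKM values, and between 14287 and 14378 genes reached 1 FPKM in each. Pearson's r was taken on the log2 scale across the 14923 genes tested. It was at least 0.993 between libraries of a group and 0.892 to 0.896 between MEF and D4 libraries. The labels do not say whether the 3 libraries of a group came from separate cultures, so the p-values measure only the spread between these libraries. Fold changes below are differences of mean log2(FPKM + 1), D4 minus MEF, and a gene was called higher or lower at a limma p adjusted over all 14923 genes (Benjamini-Hochberg) under 0.05. Where a gene is given with its libraries, its D4 values lay all above or all below its MEF values unless overlap is stated. Macrophage transcripts enter several lists below. The 18 macrophage markers summed to 1757 to 1797 FPKM in the MEF libraries and to 202 to 243 in D4. None was at 0 in either group, and in bulk libraries fewer cells of a type and less RNA per cell cannot be told apart.

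A group of features separated the day 4 libraries from both other kinds of cell. By a rule set after the values were seen, 23 features had at least 3 FPKM in every MEF and iPSC library while every D4 and D4_DUX value was under 10% of their lowest. They comprised 14 processed pseudogenes, 6 protein-coding genes and 3 others. Rpsa-ps10, a processed pseudogene of a ribosomal protein gene, was at 522, 559 and 504 FPKM in MEF and at 6.56, 5.84 and 6.31 in D4. Ifi202b, an interferon-inducible gene of a family of close copies, was at 66.8, 54.5 and 65.9 FPKM in MEF and was listed at 0 in all D4 libraries. In the iPSC libraries Ifi202b was at 49.5, 39.3 and 42.4 FPKM and Rpsa-ps10 at 581, 669 and 656. Ifi202b in D4 was at least 694-fold lower than in MEF against a floor of 3 fragments per library. The reverse pattern, high in D4 and D4_DUX and low in MEF and iPSC, was met by 71 features, 56 of them protein-coding. Genes described below were among these 71, including Krt13, Krt14, Krt16, Pkp1, Sbsn, Krtdap, Upk1b, Upk3b, Cd34, Ly6c1, Igfbp6 and Wnt2. The labels do not give the source of the fibroblasts behind each group, so a difference in the source of the cells and a change during reprogramming cannot be told apart for any single gene here. Xist, the RNA of the inactive X chromosome, was at 17.3 to 29.0 FPKM in all 12 libraries beside the Y-linked Ddx3y at 9.15 to 14.6, so both kinds of transcript were present in cultures labelled as male.

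**Figure D1:**
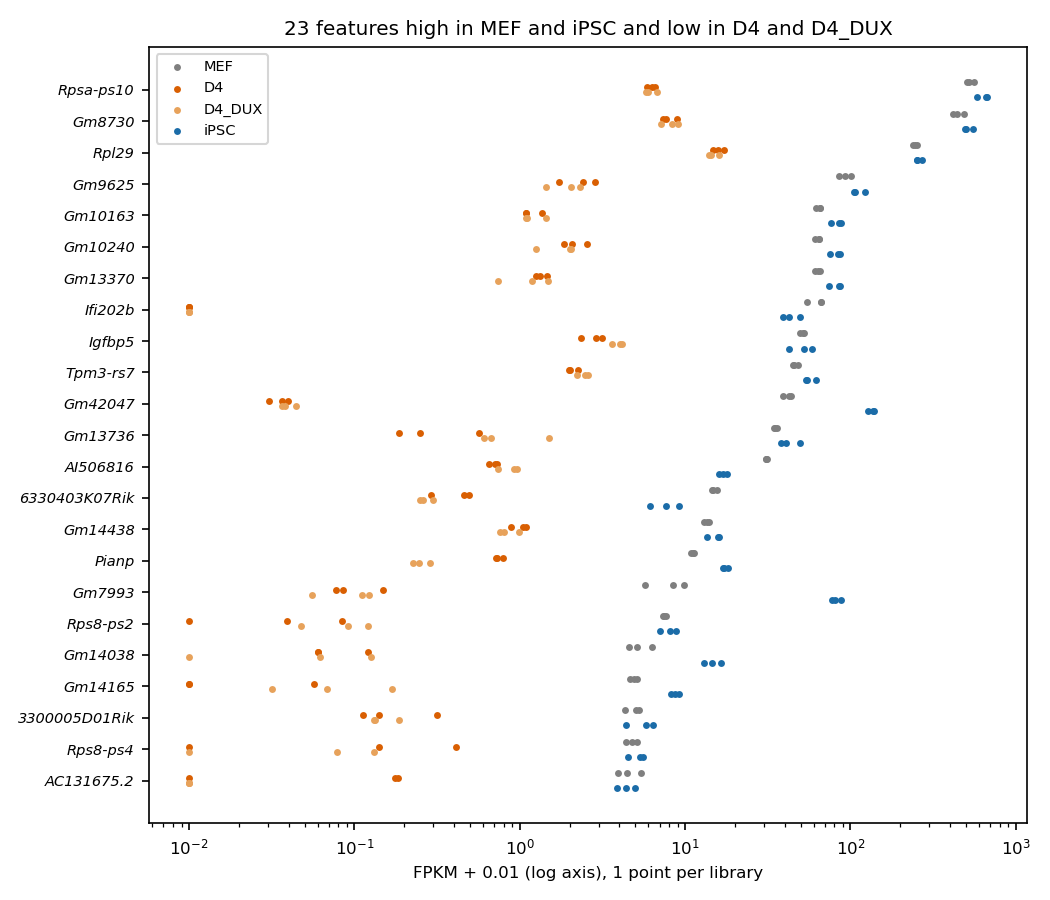
FPKM of 23 features on a log axis (0.01 added), 1 point per library and 1 colour per group. MEF and iPSC points stand together at the right of every row and D4 and D4_DUX points at the left; Rpsa-ps10 was at 504 to 559 FPKM in MEF and 5.84 to 6.56 in D4.

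Most genes measured differed between day 4 and the fibroblasts, the majority by small amounts. Of the genes tested 10043 (67.3%) were called, 5542 higher in D4 (37.1%) and 4501 lower (30.2%). These shares are the background for the counts of every gene list in the text. Changes of at least 2-fold were fewer, with 889 genes higher (5.96%) and 727 lower (4.87%), and a log2 change of at least 4 was reached by 32 higher and 11 lower. The values of the groups did not overlap for 10556 genes (70.7%). The median over all genes tested was 0.04, and 5% of genes lay below -0.98 and 5% above 1.10. Whether more genes were called higher or lower depended on the scaling: with median-ratio scaling 4850 were higher and 5236 lower.

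**Figure D2:**
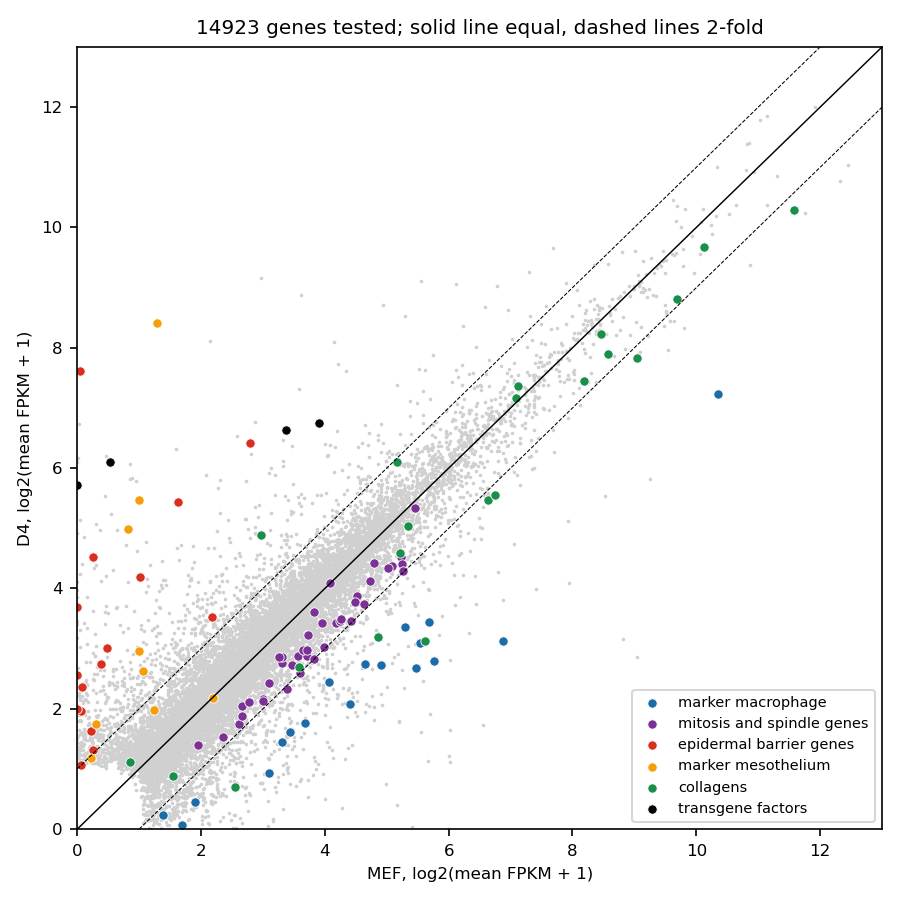
Log2(mean FPKM + 1) of the 3 MEF libraries (horizontal) and the 3 D4 libraries (vertical), 1 point per gene tested, with 6 gene lists coloured. Macrophage markers lie below the lower 2-fold line, with 18 of 18 lower in D4, while epidermal barrier genes, mesothelial markers and the 4 factors lie mostly above the upper one.

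The genes with the largest rises had little or no RNA in the fibroblasts. Aldh3a1 (ENSMUSG00000019102, chromosome 11, 61207537 to 61218421, GRCm38), an aldehyde dehydrogenase of cornea and other surface epithelia, was at 0.0457, 0.0439 and 0.0183 FPKM in MEF and at 192, 198 and 193 in D4. Msln (ENSMUSG00000063011, chromosome 17, 25748613 to 25754378), which encodes the mesothelial surface protein mesothelin, was at 1.02, 1.85 and 1.48 FPKM in MEF and at 342, 350.4 and 327 in D4. In both, the lowest D4 library was far above every MEF library. The log2 fold changes were 7.56 for Aldh3a1 (SE 0.05) and 7.13 for Msln (SE 0.10, adjusted p = 1.48e-13). Other named genes with large rises were Nccrp1 (6.71), Prelp (6.21), a leucine-rich matrix protein, Clec3b (6.16), Itgb4 (5.74), the integrin subunit of hemidesmosomes, Anxa8 (5.27), Podxl (5.09), Mal (5.09), Nkain4 (4.97), the embryonic globin Hbb-y (4.91) and the ferritin receptor Scara5 (4.77). Prelp alone went from 7.17, 7.76 and 5.61 FPKM to 564, 578 and 581, which placed it among the abundant matrix transcripts of D4. Its annotated antisense partner Gm15851 moved with it, from a mean of 3.43 to 276 FPKM. Gm15851 (5.99), Gm19553 (6.10) over Pou5f1, and Pou5f1, Sox2 and Perp, described below, lay in the same range. Aldh3a1, Msln, Nccrp1, Prelp, Gm15851, Clec3b, Itgb4, Anxa8, Mal, Nkain4, Hbb-y and Scara5 were among the 71 features above. For these too, the source of the cells and a change during reprogramming cannot be told apart.

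Among called genes with a mean of at least 5 FPKM in the higher group, and with predicted genes and clone names left aside, the largest falls were those of Rpsa-ps10 (-6.19), Ifi202b (-5.98), the chemokine gene Ccl12 (-4.58), Tpm3-rs7 (-3.94), the matrix protein gene Thbs4 (-3.92), the ribosomal protein gene Rpl29 (-3.87), Igfbp5 (-3.79), which binds insulin-like growth factors, and the macrophage receptor Marco (-3.76). Predicted genes within that range included Gm8730 (-5.66) and Gm42047 (-5.38), both among the 23 features above. Ccl12 was at 48.1, 47.6 and 54.4 FPKM in MEF and at 1.82, 0.975 and 0.748 in D4. Igfbp5 was at 51.4, 52.6 and 49.5 FPKM in MEF and at 2.90, 2.35 and 3.12 in D4. Rpl29, Tpm3-rs7 and Igfbp5 were among the 23 features above, and genes with near-identical processed copies, such as Rpl29, can lose or gain fragments to those copies in counting.

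The reprogramming factors were present at day 4, which checks the labels. Pou5f1 (ENSMUSG00000024406, chromosome 17, 35506018 to 35510772) was listed at 0 FPKM in all 3 MEF libraries and at 50.9, 46.0 and 57.9 in D4. Against a floor of 3 fragments per library this was at least 777-fold higher. Sox2 was at 0.280, 0.642 and 0.423 FPKM in MEF and at 69.2, 59.3 and 73.8 in D4 (log2 fold change 5.56, SE 0.09). Klf4 and Myc, which fibroblasts express on their own, differed from this pattern in their starting level. Klf4 went from 8.32, 10.4 and 9.45 FPKM to 98.2, 95.4 and 100.3, and Myc from 12.8, 16.5 and 12.6 to 103, 108 and 107, ratios of mean FPKM of 10.4 and 7.60. Gene-level FPKM does not separate transcripts of the transgene from those of the cells' own genes.

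Few pluripotency genes reached the level needed for a test. Of 18 genes listed as early pluripotency genes 2 passed the filter, and of 26 listed late ones 5 did. Nanog, the hub of the late network, was at 0.173, 0.256 and 0.174 FPKM in MEF and at 0.327, 0.225 and 0.278 in D4, ranges that overlap, and was below the filter. Esrrb, another late factor, had at most 0.0184 FPKM in any of the 6 libraries, and Epcam, an epithelial adhesion gene of pluripotent cells, stayed between 0.0826 and 0.146. L1td1, which encodes an RNA-binding protein of pluripotent cells, rose but stayed low. It was at 0, 0.0268 and 0.0224 FPKM in MEF and at 3.60, 3.88 and 3.89 in D4 (log2 fold change 2.24). L1td1 passed the filter only through its D4 values, so its direction was set by the filter. Klf2 and Klf5, naive-state factors related to Klf4, moved the other way and fell by 1.93 and 0.68 on the log2 scale. None of 21 germline genes passed the filter, and the annotated Dux gene, Duxf3, was at or below 0.0132 FPKM in all 6 libraries.

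Among epithelial adhesion genes, those tested included components of desmosomes, while many others stayed too low to test. Of 38 listed adhesion and junction genes 16 passed the filter, 14 of them higher and 2 lower. A gene silent in MEF could be tested only if D4 reached 1 FPKM, which held for 10 of the 16, so these counts describe the members and are not evidence of direction. Desmosome components were prominent: Pkp1, plakophilin 1, was at 0.0353, 0.0424 and 0.0212 FPKM in MEF and at 7.39, 6.90 and 7.17 in D4, and Dsp, desmoplakin, at 0.108, 0.0948 and 0.0460 and at 4.61, 3.97 and 4.64. Jup, plakoglobin, went from 10.7, 12.3 and 11.9 FPKM to 42.8, 44.5 and 45.6 (log2 fold change 1.84, adjusted p = 3.54e-11). Perp, a desmosome-associated protein and p53 target, rose most, from 0.750, 0.753 and 0.920 FPKM to 65.7, 67.5 and 65.8 (log2 fold change 5.22, SE 0.11).

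The classical cadherins moved in opposite directions. Cdh1 (ENSMUSG00000000303, chromosome 8, 106603351 to 106670246, GRCm38) encodes E-cadherin, the adhesion protein of epithelia. It was at 0.223, 0.0791 and 0.109 FPKM in MEF and at 2.78, 2.54 and 2.61 in D4. The groups did not overlap, but the levels were low in absolute terms (log2 fold change 1.68, SE 0.06). Cdh1 passed the filter only through its D4 values, so its direction was set by the filter. Cdh3, P-cadherin, fell from 23.3, 26.1 and 23.5 FPKM to 10.8, 10.5 and 10.8 (-1.11, adjusted p = 7.79e-09). At day 4 the mean of Cdh3 thus still stood above that of Cdh1 on the FPKM scale, 10.7 against 2.64. The tight junction component F11r rose from 10.2, 9.80 and 10.6 to 36.8, 40.7 and 35.5 FPKM. Tight junction and epithelial splicing genes that mark simple epithelia, among them Ocln, Cldn7, Esrp1 and Grhl2, stayed below the filter in both groups.

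Keratins are the intermediate filament proteins of epithelia. Of 16 listed keratins 8 passed the filter, 7 of them only through their D4 values, so that their direction was set by the filter; 7 were called higher. The squamous keratins Krt16 and Krt13 were listed at 0 in all MEF libraries and were at 13.5, 14.8 and 15.9 and at 9.54, 10.1 and 10.4 FPKM in D4, at least 159-fold and 131-fold higher against the floor. Krt14, of basal epithelial cells, was at 0, 0.0787 and 0.101 FPKM in MEF and at 19.6, 18.9 and 22.4 in D4. Keratins of simple epithelia stood at lower D4 levels. Krt8 went from 0.448, 0.468 and 0.290 FPKM to 2.91, 2.21 and 2.58 (log2 fold change 1.35). Krt18 went from 0.803, 0.963 and 0.977 to 2.01, 2.20 and 2.38 (0.74). Krt19 was at 3.74, 3.57 and 3.37 FPKM in MEF and at 3.85, 3.29 and 3.44 in D4, overlapping ranges with no call.

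Genes of the epidermal barrier, chosen as a list with earlier results of these data known, had 16 of 28 members above the filter and all 16 higher. Of these 13 passed only through their D4 values, so the count is no evidence of direction. Besides Aldh3a1 they included Aqp3, a water and glycerol channel (0.170, 0.210 and 0.194 FPKM in MEF and 20.8, 23.7 and 21.2 in D4), and Sbsn, suprabasin (2.29, 2.29 and 1.72 in MEF and 41.4, 43.8 and 41.8 in D4). Krtdap, keratinocyte differentiation-associated protein, was listed at 0 in MEF and was at 11.8, 12.7 and 11.1 FPKM in D4, at least 56.8-fold higher. Ivl, involucrin, of the cornified envelope, rose from 0.208, 0.343 and 0.351 to 5.10, 6.77 and 5.22 FPKM. The structural genes of terminal cornification Flg, filaggrin, and Lor, loricrin, did not reach the filter in either group.

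**Figure D3:**
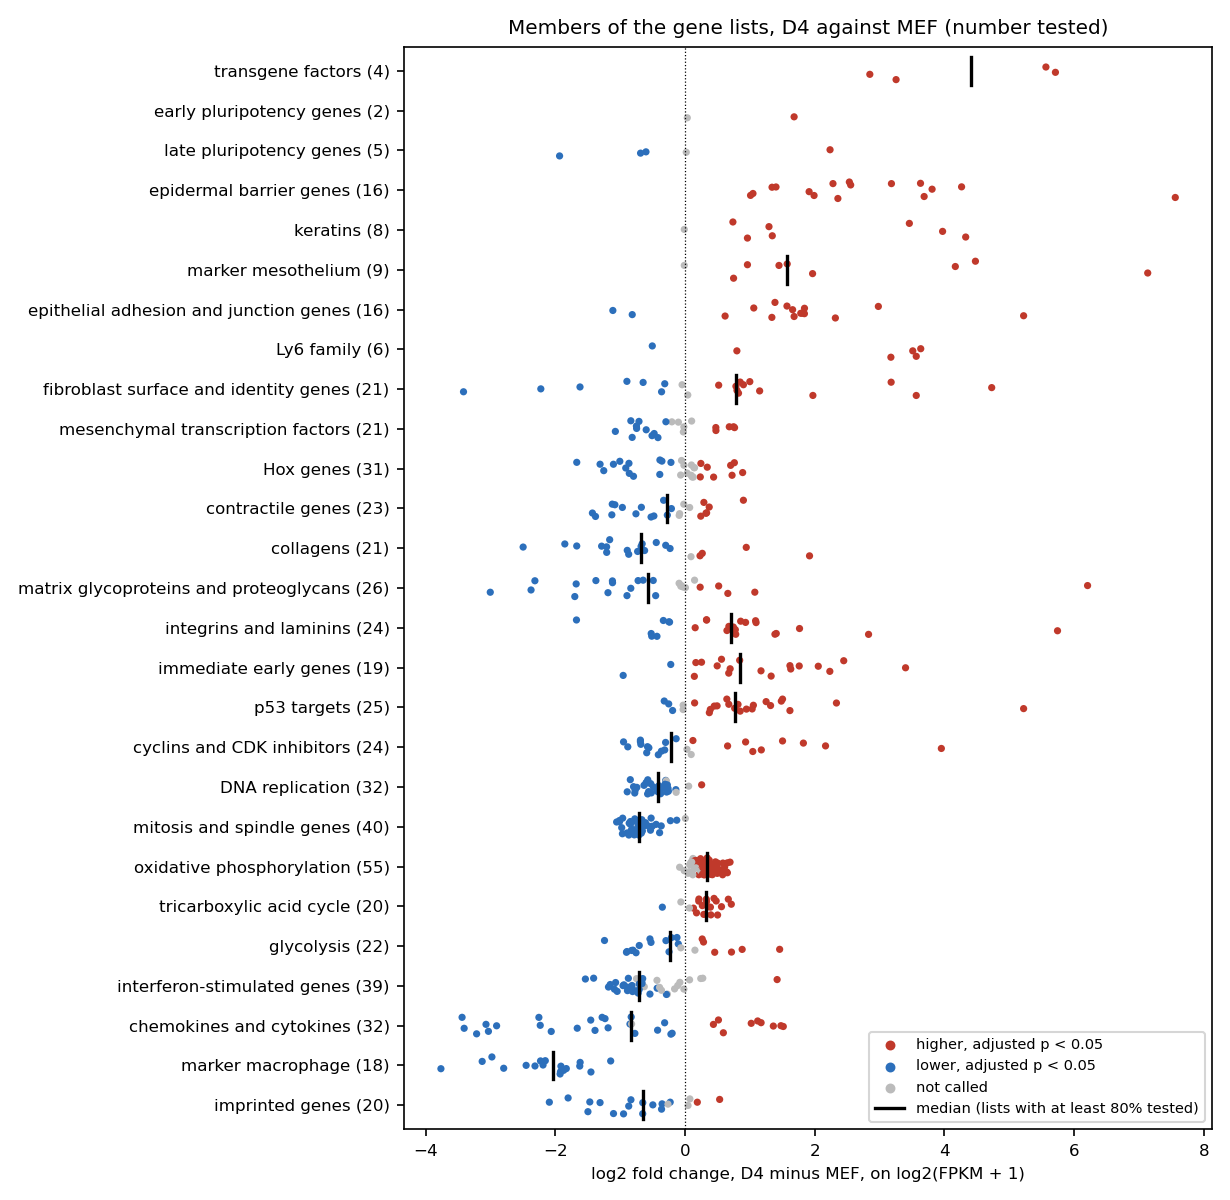
Log2 fold change of each tested member of 27 gene lists, D4 minus MEF, with the number tested in brackets, called members in red or blue and a black bar for the median where at least 80% of the listed genes were tested. Macrophage markers (median -2.04) and mitosis genes (-0.71) lie left of 0 and oxidative phosphorylation genes (0.34) right of it; all genes tested had a median of 0.04.

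Markers of mesothelium, the lining of body cavities, appeared beside the squamous genes. Of 10 listed 9 passed the filter, 8 of them higher, and 5 passed only through their D4 values, so the count is no evidence of direction. Upk1b was at 1.03, 1.07 and 0.868 FPKM in MEF and at 44.5, 43.6 and 41.7 in D4, and Upk3b at 0.660, 0.778 and 0.841 and at 31.6, 31.0 and 29.2. The transcription factor Wt1 changed less, from 1.54, 1.09 and 1.45 to 3.20, 2.99 and 2.69 FPKM (log2 fold change 0.75, adjusted p = 7.71e-06). Their summed FPKM was 10.5 to 10.9 in MEF and 421 to 447 in D4, and Msln made up most of the D4 sum.

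Fibroblast surface genes did not fall as a group. Of 21 tested 12 were higher and 7 lower, a called share of 90.5% against 67.3% of all genes tested, and their median was 0.79. Cd34 (ENSMUSG00000016494, chromosome 1, 194938819 to 194961279), a sialomucin of stromal and blood progenitors, was at 2.21, 1.69 and 2.19 FPKM in MEF and at 78.5, 82.0 and 76.9 in D4 (4.73, SE 0.06, adjusted p = 6.4e-14). Ly6a, which encodes Sca-1, rose from 44.2, 40.7 and 53.6 to 549, 593 and 521 FPKM (3.57, adjusted p = 1.63e-10), and its neighbour Ly6c1 from 3.70, 3.52 and 4.56 to 56.0, 56.8 and 52.0. These members of the Ly6 family share sequence, so fragments could be divided between them in counting.

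Thy1, a fibroblast surface protein lost from cells early in reprogramming, was higher in D4. Its values were 159, 161 and 162 FPKM in MEF and 275, 278 and 281 in D4 (0.79, SE 0.07, adjusted p = 1.22e-06). S100a4, also called fibroblast-specific protein, rose from 159, 138 and 172 to 621, 629.8 and 593 FPKM. Other fibroblast markers fell: the receptor Pdgfra went from 88.8, 80.7 and 86.1 to 17.8, 15.8 and 18.9 FPKM (-2.22, adjusted p = 4.8e-10), and the microfibril protein Mfap4 from 179, 168 and 161 to 15.0, 16 and 13.8 (-3.41, adjusted p = 1.08e-08). Vim, vimentin, was at 521, 553 and 533 FPKM in MEF and at 547, 575 and 534 in D4, overlapping ranges with no call (0.04, adjusted p = 0.532). Col1a1, Vim and Thy1, defining markers of fibroblasts, were thus present in both groups.

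**Figure D4:**
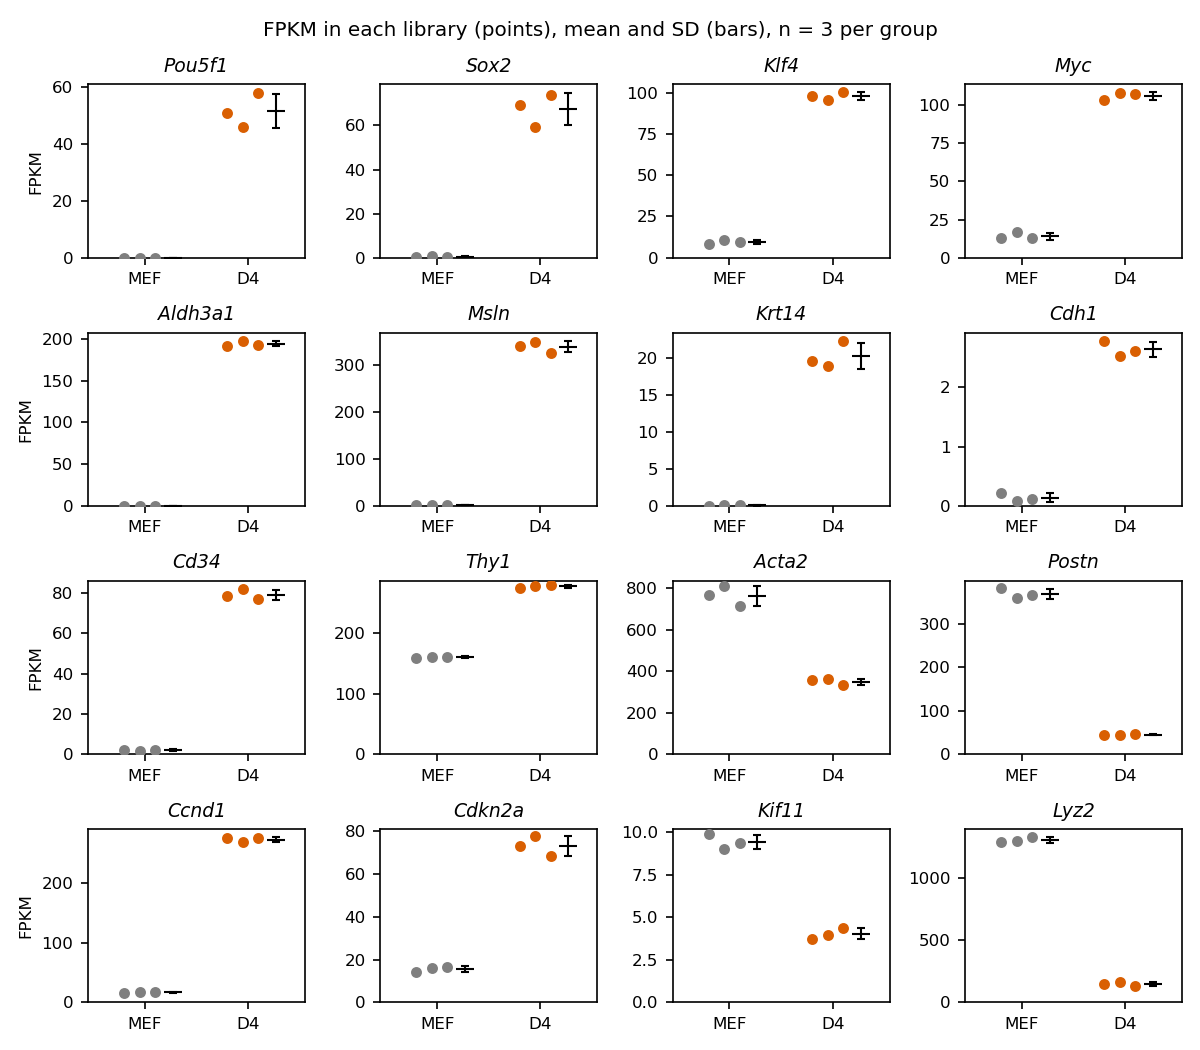
FPKM of 16 genes in each of the 3 MEF (grey) and 3 D4 (orange) libraries, with bars for the mean and SD; each vertical axis starts at 0 and has its own scale. The groups do not overlap in any panel: Thy1 was at 159 to 162 in MEF and 275 to 281 in D4, and Lyz2 at 1285 to 1328 and 135 to 164.

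Transcription factors of the mesenchymal state were split. Of 21 tested 5 were higher and 11 lower, with a median of -0.29. Snai1 and Snai2, repressors of E-cadherin, went from 39.9, 40.5 and 38.9 to 18.5, 24.4 and 23.0 FPKM (-0.83, adjusted p = 2.06e-06) and from 18.9, 20.9 and 19.5 to 11.4, 11.5 and 11.1 (-0.75, adjusted p = 7.68e-05). Zeb2 fell from 8.25, 7.60 and 7.56 to 4.84, 4.70 and 4.90 FPKM, while its paralog Zeb1 was at 11.2, 10.4 and 10.8 and at 12.1, 11.1 and 11.8, overlapping, with no call (0.10, adjusted p = 0.0847). Twist1 rose from 20.6, 21.4 and 22.9 to 35, 38.5 and 32.6 FPKM (0.68, adjusted p = 2.32e-06), and Prrx1, a limb and fibroblast factor, rose by 0.48. Runx1 had the largest fall of the list, from 9.97, 9.61 and 9.42 to 3.87, 3.93 and 4.42 FPKM.

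Most collagens were lower in D4. Of 21 tested collagen genes 16 were lower and 4 higher, beside 30.2% lower and 37.1% higher over all genes tested, with a median of -0.68. Col1a1, of collagen I and the most abundant of the list, was at 3049, 3083 and 3009 FPKM in MEF and at 1201, 1264 and 1284 in D4 (-1.29, SE 0.11, adjusted p = 6.36e-07). Its partner chain Col1a2 fell less, from 1119.7, 1133 and 1097 to 809, 825 and 829 FPKM (-0.44, adjusted p = 0.00507). Col5a3 had the largest fall, from 48.5, 49.2 and 46.8 to 7.20, 7.76 and 8.22 FPKM (-2.50). Of the chains of basement membrane collagen IV, Col4a1 had 0.09 with no call and Col4a2 rose by 0.23. Col14a1, a collagen on the surface of fibrils, rose from 7.41, 6.90 and 6.28 to 29.2, 28.5 and 28.4 FPKM (1.92, adjusted p = 9.86e-11), as did Col8a1 (0.94).

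Other matrix genes gave a similar count, with 15 of 26 lower and 5 higher (median -0.57). Postn, periostin, of wound matrix, fell from 381, 359 and 367 to 44.1, 44.2 and 47.3 FPKM (-3.00, SE 0.13, adjusted p = 2.3e-09). Tgfbi, asporin (Aspn) and versican (Vcan) fell by 2.37, 2.31 and 1.70, and fibronectin (Fn1) went from 740.1, 755 and 683 to 396, 356 and 419.8 FPKM. Sparc, an abundant collagen-binding protein, was at 1099.7, 1086 and 1056 FPKM in MEF and at 1088, 1099 and 1069 in D4, overlapping ranges. Of 21 collagen-processing enzymes 12 were lower and 6 higher. P4ha2, a prolyl hydroxylase, had the largest fall (-1.24), and Loxl4, a crosslinking oxidase, rose from 7.74, 8.26 and 8.41 to 47.0, 43.5 and 48.1 FPKM.

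The TIMPs, inhibitors of matrix metalloproteinases, were higher in D4. Timp3 rose from 69.5, 71.7 and 64.3 to 539, 517 and 535 FPKM (2.94, SE 0.04, adjusted p = 2.63e-13), Timp2 from 124, 123 and 122 to 399, 395 and 393, and Timp1 by 0.81. Among metalloproteinases Mmp3, stromelysin, fell from 909, 839 and 926 to 324, 323 and 315 FPKM, and Mmp12, macrophage elastase, from 15.9, 15.3 and 16 to 1.71, 1.53 and 1.51. The part of the macrophage RNA in the fall of Mmp12 was not tested. Mmp2 (-0.14) and Mmp14 (0.07), the gelatinase of fibroblasts and its activator, were not called, and Mmp10 rose by 1.47. Over the whole list of 21 proteases and inhibitors 5 were higher and 10 lower.

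The laminin receptor of hemidesmosomes rose and a collagen receptor fell. Of 24 integrin and laminin genes tested 17 were higher and 7 lower (median 0.71), with 4 tested only through their D4 values. Itgb4 was at 0.405, 0.370 and 0.346 FPKM in MEF and at 70.7, 70.3 and 76.9 in D4, a ratio of means of 194. Its partner Itga6, with which it forms the laminin receptor of hemidesmosomes, rose from 2.56, 2.81 and 2.61 to 25.6, 24.3 and 25.1 FPKM (2.83, adjusted p = 2.51e-13). Lamb3, a chain of epithelial laminin, rose by 1.77 but stayed at 2.42 to 2.68 FPKM. Itga11, the collagen-binding integrin of fibroblasts, fell from 43.0, 44.6 and 39.1 to 12.1, 12.2 and 13.3 FPKM (-1.67, adjusted p = 8.52e-08).

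Of 23 contractile genes tested 13 were lower and 6 higher (median -0.27), beside 30.2% lower and 37.1% higher over all genes. Acta2, smooth muscle actin, was at 767, 808 and 711 FPKM in MEF and at 356, 360.0 and 333 in D4 (-1.12, SE 0.11, adjusted p = 2.66e-06). Tagln, transgelin, went from 164, 179 and 164 to 78.2, 80.6 and 71.5 FPKM (-1.13), and Myl9, a myosin light chain, from 165, 169 and 161 to 62.3, 68.7 and 57.8 (-1.38, adjusted p = 6.5e-07). Csrp2 fell most (-1.43), and Des, desmin, rose from 5.04, 6.08 and 5.52 to 10.3, 11.7 and 11.7 FPKM. The CArG box, the element bound by serum response factor, was searched on both strands in RefSeq promoter windows (GRCm38.p6, 250 bases before to 50 after the start). It was found in 3 of the 19 list members with a window (15.8%, Cnn2, Myl9 and Vcl, the last not called) and in 1.30% of 9803 windows of tested genes. The Myl9 window (chr2:156775214-156775513, plus strand) is shown, with the CArG box in capitals, because it belongs to the member with a match that fell most.
Myl9: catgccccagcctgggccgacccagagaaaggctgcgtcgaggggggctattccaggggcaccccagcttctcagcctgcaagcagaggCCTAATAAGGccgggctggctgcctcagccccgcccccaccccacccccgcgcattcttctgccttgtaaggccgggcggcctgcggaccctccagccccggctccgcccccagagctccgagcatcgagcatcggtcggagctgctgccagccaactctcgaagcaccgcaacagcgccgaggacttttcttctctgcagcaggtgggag
A match describes the letters of the window and not a bound site.

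Among TGF-beta genes 8 of 22 were higher and 10 lower, beside 37.1% higher and 30.2% lower over all genes, a higher share near the background. The list held falls of the matrix-bound latency protein Ltbp2 (-1.55) and of Tgfb3 (-0.87) and rises of Tgfbr2 (0.99) and Inhba (0.85). Among BMP genes and the Id factors they induce, 5 of 19 were higher and 12 lower. Id1 stood apart, from 8.24, 8.46 and 10.2 to 87.7, 90.2 and 83.7 FPKM (3.15, SE 0.07, adjusted p = 6.05e-12), while Id2 fell from 11.7, 12.4 and 12.7 to 4.18, 4.86 and 4.76. The BMP antagonists Grem1 (46.7, 46.4 and 48.2 in MEF, 158, 152 and 153 in D4) and Nog (1.91) rose as well.

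Wnt genes counted 11 of 22 higher and 7 lower, beside 37.1% and 30.2% over all genes, and 8 higher and 8 lower under median-ratio scaling. Of these 22, 3 were tested only through their D4 values, so the count is no evidence of direction. The ligands Wnt2 and Wnt9a rose from 0.384, 0.359 and 0.504 to 11, 11.5 and 10.8 FPKM and from 2.23, 1.85 and 2.28 to 22.1, 22.6 and 18.9. The negative feedback targets Axin2 (1.45) and Notum (1.94) also rose, and the secreted antagonist Sfrp2 fell from 44.7, 42.5 and 41.2 to 6.98, 7.28 and 8.14 FPKM. Of 20 YAP and TEAD factors and targets 12 were higher and 5 lower (median 0.47). Tead4, a DNA-binding partner of YAP, rose from 1.01, 0.888 and 0.716 to 6.73, 5.98 and 6.84 FPKM, and Wwtr1, which encodes the YAP relative TAZ, from 32.3, 33.9 and 33.1 to 61.2, 59.1 and 61.3. The classical target Ccn2 was not called (-0.02), Ccn1 rose by 0.46 and Ankrd1 fell by 0.73.

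Genes of cell division were lower almost without exception. Of 40 mitosis and spindle genes 39 were lower and 0 higher, beside 30.2% lower over all genes tested, and their median was -0.71. Kif11 (ENSMUSG00000012443, chromosome 19, 37376403 to 37421859), the motor that separates the spindle poles, was at 9.88, 9.06 and 9.37 FPKM in MEF and at 3.76, 3.95 and 4.38 in D4 (-1.05, SE 0.05, adjusted p = 7.93e-09). The checkpoint kinase Bub1 went from 11.7, 10.7 and 11.1 to 4.98, 5.14 and 5.0 FPKM (-1.01), and Mki67, the proliferation antigen, from 39.4, 37.0 and 35.3 to 19.2, 16.9 and 19.3 (-0.98). The 1 member not called was Anln, anillin, at 16.3, 16.1 and 15.4 FPKM in MEF and at 16.8, 14.9 and 16.3 in D4.

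Promoters of mitotic genes are known to carry the CHR element, TTTGAA, near the start together with CCAAT boxes upstream. On either strand, the letters TTTGAA were found in 24 of the 32 members with a window (75%) and in 11.9% of the 9803 windows. CCAAT was found in 24 of 32 (75%) and in 39.0% of all windows. Kif11 and Bub1 are shown as the members with a match that fell most, Kif11 with both elements and Bub1 with CCAAT boxes alone. Capitals mark TTTGAA (read on the opposite strand as TTCAAA) and CCAAT (opposite strand ATTGG). In Kif11 the CHR starts 19 bases before the RefSeq start and the CCAAT box 45 bases before it. The windows are chr19:37376132-37376431 (plus strand) and chr2:127831810-127832109 (minus strand).
Kif11: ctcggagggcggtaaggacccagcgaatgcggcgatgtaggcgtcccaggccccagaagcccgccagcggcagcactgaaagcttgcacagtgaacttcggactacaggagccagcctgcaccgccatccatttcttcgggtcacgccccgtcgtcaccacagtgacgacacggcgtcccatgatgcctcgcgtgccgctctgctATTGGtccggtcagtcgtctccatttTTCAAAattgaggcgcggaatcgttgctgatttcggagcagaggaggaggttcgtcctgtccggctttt
Bub1: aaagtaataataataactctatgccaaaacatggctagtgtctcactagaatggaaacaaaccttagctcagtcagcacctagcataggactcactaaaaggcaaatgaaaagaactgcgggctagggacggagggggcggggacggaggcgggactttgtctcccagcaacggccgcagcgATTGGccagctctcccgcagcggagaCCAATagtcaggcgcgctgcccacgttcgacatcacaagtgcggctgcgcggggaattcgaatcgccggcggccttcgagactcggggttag

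DNA replication genes fell by less. Of 32 tested 28 were lower and 1 higher, with a median of -0.41. Uhrf1, which directs maintenance methylation at replication forks, went from 20.6, 21.9 and 20.8 to 11.3, 10.4 and 11.1 FPKM (-0.89), and the helicase factor Cdc45 from 7.23, 7.06 and 7.02 to 3.34, 4.02 and 3.22 (-0.84). The 2 subunits of ribonucleotide reductase were apart: Rrm1 was the 1 member that rose (18.3, 18.4 and 18.5 in MEF, 22.4, 22.6 and 21.4 in D4), and Rrm2 had no call (0.06).

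Cyclins and kinase inhibitors leaned lower as a list, with single members of the G1 phase strongly higher. Of 24 tested 13 were lower and 9 higher (median -0.22), beside 30.2% lower and 37.1% higher over all genes tested. Ccnd1 (ENSMUSG00000070348, chromosome 7, 144929931 to 144939925), cyclin D1, was at 15.7, 17.0 and 17.4 FPKM in MEF and at 275, 268 and 275 in D4, a ratio of means of 16.3 (3.95, SE 0.04, adjusted p = 1.64e-14). The inhibitors of its kinase were higher as well: Cdkn2a, the INK4a/ARF gene, rose from 14.1, 16 and 16.5 to 73.2, 77.7 and 68.4 FPKM (2.17), and Cdkn2b from 20.1, 21.9 and 24.4 to 81.6, 84.9 and 76.2 (1.83). Cdkn1a, which encodes p21, rose from 68.9, 67.6 and 69.9 to 194, 202 and 195 FPKM (1.50, adjusted p = 1.24e-11). Other inhibitors fell, among them Cdkn1c (-0.95) and Cdkn2c (-0.88).

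Targets of p53 were mostly higher. Of 25 genes tested 20 were higher and 3 lower, beside 37.1% higher over all genes, with a median of 0.77. Mdm2, the ubiquitin ligase that limits p53, rose from 22.1, 22.1 and 22 to 56.7, 57.4 and 55.8 FPKM (1.32, SE 0.06, adjusted p = 2.39e-09), and the secreted stress factor Gdf15 from 2.19, 3.33 and 2.22 to 15.1, 19.1 and 16.6 (2.33). Trp53 itself was at 27.9, 28.2 and 27.7 FPKM in MEF and at 25.5, 28.2 and 28.3 in D4, overlapping ranges with no call. Cdkn1a, Perp and Btg2 are on this list and on others described here.

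Few replication-dependent histone genes could be tested. Of 25 listed 9 passed the filter, 5 of them only through their D4 values, and 8 were higher, which is no evidence of direction for the list. Hist1h1c, a linker histone, rose from 26.5, 28.9 and 28.5 to 96.3, 95.2 and 87.4 FPKM, and Hist1h2bc from 18.9, 19.5 and 21.2 to 68.8, 66.6 and 63.3. Most mRNAs of these genes end without a poly(A) tail, and the libraries were made from poly(A)-selected RNA, so the values count the share of transcripts that carry one. Copies of a histone gene are alike in sequence, and fragments could be divided between them.

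Energy metabolism was divided between glycolysis and the mitochondrion. Of 22 glycolytic genes 14 were lower and 6 higher (median -0.23), and of 20 genes of the tricarboxylic acid cycle 17 were higher and 1 lower (median 0.33). The respiratory chain and ATP synthase list, 55 genes encoded in the nucleus, had 42 higher, 0 lower and a median of 0.34. Over all genes tested 37.1% were higher and 30.2% lower. The glucose transporter Slc2a1 fell from 61.2, 63.4 and 63.6 to 33.1, 32.9 and 33.4 FPKM (-0.90, SE 0.05, adjusted p = 1.74e-08) and phosphoglycerate kinase Pgk1 from 552, 537 and 559 to 331, 333 and 313 (-0.75). Uqcrc1, a core subunit of complex III, rose from 33.4, 36.4 and 37.2 to 58.8, 61.0 and 55.2 FPKM (0.69, adjusted p = 1.12e-07), and no member of this list rose by 2-fold. Mitochondrially encoded genes had 0 of 13 listed members in the table. Under median-ratio scaling the respiratory list had 38 higher and 1 lower.

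Isozymes within glycolysis moved apart. Eno1 and the neuronal-type Eno2 fell, Eno2 from 14.2, 15.0 and 14.2 to 5.65, 5.43 and 5.56 FPKM (-1.24), while the muscle-type Eno3 rose by 0.88. Pfkfb3, which makes the activator of phosphofructokinase, fell by 0.71, and its paralog Pfkfb4 rose from 2.06, 1.88 and 2.15 to 7.34, 7.11 and 7.52 FPKM (1.46).

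Genes that handle lactate are of interest because the series concerns histone lactylation. Ldha, the lactate dehydrogenase subunit that favours lactate production, went from 418, 411 and 422 FPKM to 301, 298 and 289 (-0.49, SE 0.03, adjusted p = 3.47e-08), and Ldhb rose by 0.47. The lactate transporters Slc16a1 and Slc16a3 fell from 30.9, 31.1 and 33.7 to 13.2, 14.7 and 14.8 FPKM (-1.11) and from 52.5, 53.2 and 56.0 to 30.8, 31.1 and 32.2 (-0.76). Pdha1, of the pyruvate dehydrogenase complex, rose from 43.2, 40.5 and 44.8 to 72.3, 73.3 and 69.2 FPKM (0.73). Smarca4, which encodes Brg1, the chromatin remodeller named in the series' title, rose from 29.4, 28.1 and 28.0 to 37.9, 35.2 and 37.3 FPKM (0.36, adjusted p = 6.39e-06), and the acyltransferase Ep300 fell by 0.15 (limma adjusted p = 0.0184), a call lost without MEF replicate 1 (adjusted p = 0.0750) or D4 replicate 2 (adjusted p = 0.0774).

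Sterol synthesis and amino acid stress genes were more often lower. Of 24 cholesterol genes 12 were lower and 5 higher, with rises of Sc5d (0.52) and Ebp (0.44) and falls of Lss (-0.69) and Cyp51 (-0.63), enzymes of sterol synthesis. Of 22 genes of the integrated stress response 14 were lower and 4 higher, among them Trib3 (30.4, 33.9 and 29.5 in MEF, 6.41, 8.36 and 7.56 in D4) and Atf3 (-1.07). Nupr1, a stress-induced chromatin protein on the same list, rose from 23.9, 24.7 and 23.2 to 104, 113 and 97.4 FPKM (2.08). Of 18 serine and one-carbon genes 7 were higher and 8 lower, beside 37.1% and 30.2% over all genes tested.

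Detoxification genes moved in both directions. Of 33 NRF2 and glutathione genes 18 were higher and 8 lower, beside 37.1% and 30.2% over all genes tested. Nqo1, a quinone reductase, rose from 3.64, 3.83 and 4.51 to 18.6, 17.4 and 17.2 FPKM (1.91), and Ephx1, an epoxide hydrolase, from 45.7, 46.1 and 42.5 to 201, 206 and 189 (2.12, adjusted p = 1.23e-10). Gsta4, a glutathione transferase that was also on the epidermal list, rose from 5.59, 5.94 and 6.23 to 84.8, 87.2 and 82.2 FPKM (3.63). Hmox1, haem oxygenase, fell from 139, 146 and 137 to 52.3, 54.8 and 48.8 FPKM (-1.42, adjusted p = 1.32e-10; macrophages express it too), and the cystine transporter Slc7a11 by 0.72. The core of the antioxidant response element, TGACNNNGC on either strand, was in 8 of 28 members with a window (28.6%) and in 14.8% of all 9803. Me1, malic enzyme, rose by 0.67 and is shown as the member with a match that rose most (chr9:86695865-86696164, minus strand, element in capitals).
Me1: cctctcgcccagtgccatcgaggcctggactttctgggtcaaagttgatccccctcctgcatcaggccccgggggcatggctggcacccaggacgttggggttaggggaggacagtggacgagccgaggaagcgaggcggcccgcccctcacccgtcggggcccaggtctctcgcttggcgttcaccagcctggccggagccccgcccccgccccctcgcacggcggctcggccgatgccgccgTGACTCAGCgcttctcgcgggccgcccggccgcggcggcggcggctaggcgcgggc

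Retinoid carriers moved apart, with Crabp2 higher, from 50.8, 46.1 and 47.1 to 199.8, 207 and 188 FPKM (2.02), and Crabp1 lower, from 535, 543 and 549 to 230.4, 242 and 256 (-1.16). In the list of 19 xenobiotic and retinoid enzymes 12 were higher and 5 lower, beside 37.1% and 30.2% over all genes tested. Of these 19, 5 were tested only through their D4 values, so the count is no evidence of direction.

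Immediate early genes, which are transcribed within minutes of a stimulus, were higher. Of 19 tested 17 were higher and 2 lower, beside 37.1% higher over all genes, with a median of 0.84. Without MEF replicate 3, and under median-ratio scaling, 14 were higher. Nr4a1, an orphan nuclear receptor, rose from 3.69, 3.99 and 3.84 to 46.5, 50.9 and 53.1 FPKM (3.40, SE 0.05, adjusted p = 3.69e-13), Egr1 from 6.09, 6.09 and 5.05 to 28.0, 30.7 and 33.3 (2.23), and the phosphatase Dusp1 from 4.95, 5.50 and 6.19 to 33.0, 32.9 and 38.1 (2.45). AP-1 factors moved in both directions, with 8 of 15 higher and 5 lower, beside 37.1% and 30.2% over all genes. By at least 2-fold, 2 were higher and 2 lower. Fos rose from 3.29, 3.49 and 3.19 to 22, 23.6 and 28.2 FPKM (2.56) and Junb by 1.00, while Batf fell from a mean of 2.46 to 0.630 FPKM. Klf6, an early gene related to Klf4, fell from 45.5, 44.5 and 46.5 to 22.4, 22.8 and 23.9 FPKM (-0.95).

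Macrophage genes were abundant in the fibroblast libraries and much lower at day 4. All 18 listed markers passed the filter and all 18 were lower, with a median of -2.04. Lyz2 (ENSMUSG00000069516, chromosome 10, 117277331 to 117282321), the macrophage lysozyme, was at 1285, 1295 and 1328 FPKM in MEF and at 148, 164 and 135 in D4, a mean 8.76-fold lower (-3.13, SE 0.11, adjusted p = 2.15e-10). Marco, a scavenger receptor, went from 114, 125 and 109 to 6.59, 9.76 and 6.85 FPKM, and Adgre1, which encodes F4/80, from 53, 55.3 and 52.3 to 5.69, 6.68 and 5.47. Spi1, the lineage factor PU.1, fell from 6.88, 8.37 and 7.41 to 0.865, 0.896 and 0.992 FPKM. All 18 fell by at least 2-fold, beside 4.87% of all genes tested.

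Of 32 chemokine and cytokine genes tested 22 were lower and 9 higher (median -0.84), beside 30.2% lower and 37.1% higher over all genes. Ccl3 and Ccl4, chemokines of macrophages, went from 114, 116 and 118 to 12, 13.8 and 13 FPKM (-3.07) and from 35.4, 34.8 and 37.2 to 2.25, 2.78 and 2.41 (-3.40). Cxcl5, a neutrophil attractant, fell from 606, 556 and 666 to 52.3, 59.4 and 54.1 FPKM (-3.44, adjusted p = 8.85e-12), and the stromal chemokine Cxcl12 from 63.9, 63.6 and 65.0 to 5.68, 6.34 and 6.08. Ccl2, the most abundant of the list, changed less, from 623, 581 and 677 to 453, 519.7 and 432 FPKM (-0.42). Il6 (1.12) and Lif (1.36), cytokines that signal through gp130, rose. The part of the macrophage RNA in these falls was not tested.

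Complement genes moved in both directions. C1qa, made by macrophages, and the receptor C5ar1 fell by 2.31 and 2.60, while the regulator Cd55 rose from 16.6, 13.7 and 16 to 75.5, 69.8 and 73.3 FPKM (2.17). In all, 8 of 17 were higher and 8 lower, beside 37.1% and 30.2% over all genes tested. Of 30 lysosome and autophagy genes 8 were higher and 13 lower, led by the macrophage cathepsin Ctss (-2.45). The called share of the lysosome list, 70%, was near the 67.3% of all genes tested. For the complement, lysosome and interferon lists too, the part of the macrophage RNA was not tested.

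Interferon-stimulated genes were lower with a wide spread between libraries. Of 39 tested 25 were lower and 1 higher (median -0.71), beside 30.2% lower and 37.1% higher over all genes tested. Isg15, a ubiquitin-like antiviral protein, was at 162, 117 and 206 FPKM in MEF and at 48.2, 93.6 and 44.8 in D4 (-1.41, SE 0.29, adjusted p = 0.00095). Ifit3 was at 38.2, 21.9 and 44.8 FPKM in MEF and at 11.4, 27.1 and 9.14 in D4, so that the groups overlapped (-1.18, SE 0.41, adjusted p = 0.0233). The call of Ifit3 was lost without either of MEF replicates 1 and 3 or of D4 replicates 1 and 3, with adjusted p between 0.0673 and 0.0978. In both genes the second MEF library was the lowest of its group and the second D4 library the highest. Without D4 replicate 2 the list had 30 lower, and without D4 replicate 3 or without MEF replicate 3 it had 19. Oas2 was the 1 member that rose, from 1.91, 1.47 and 2.58 to 6.02, 9.80 and 5.49 FPKM. Ifit3 and Ifit3b are close copies and could share fragments.

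The interferon-stimulated response element, searched on either strand, was in 3.13% of all 9803 windows. Only 28 of the 39 list members had a window, too few for a share over the list. The Isg15 window (chr4:156200769-156201068, minus strand) is shown because it holds 3 overlapping matches, in capitals, and belongs to an abundant member that fell.
Isg15: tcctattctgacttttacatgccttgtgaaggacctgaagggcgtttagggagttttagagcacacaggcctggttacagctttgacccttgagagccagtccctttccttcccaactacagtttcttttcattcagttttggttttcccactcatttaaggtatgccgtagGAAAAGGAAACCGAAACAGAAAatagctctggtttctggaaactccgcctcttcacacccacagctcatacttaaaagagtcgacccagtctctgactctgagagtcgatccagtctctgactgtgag

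Several chromatin genes differed from their paralogs. The maintenance methyltransferase Dnmt1 fell from 25.8, 25.4 and 24.9 to 14.3, 13.2 and 14.1 FPKM (-0.83, adjusted p = 2.1e-08), and the de novo enzyme Dnmt3a had no call (0.04). Of 26 genes for H3K9 methylation and histone chaperones 18 were lower and 4 higher, beside 30.2% and 37.1% over all genes tested. The largest fall of this list was in Suv39h1, an H3K9 methyltransferase (6.53, 6.40 and 5.70 in MEF, 3.58, 3.21 and 3.40 in D4). Among 26 Polycomb genes 8 were higher and 10 lower, a called share of 69.2% that was near the 67.3% of all genes: Ezh2, the methyltransferase of dividing cells, fell from 6.06, 6.36 and 5.84 to 4.30, 3.90 and 4.07 FPKM (-0.48), and its paralog Ezh1 rose from 4.21, 4.16 and 3.79 to 9.20, 9.37 and 9.09 (1.02). Of 24 BAF complex genes 14 were lower and 6 higher, beside 30.2% and 37.1% over all genes, with Smarca4 and its paralog Smarca2 (0.51) the largest rises. The listed cytosolic ribosomal proteins changed little, with 14 of 38 higher, near the 37.1% of all genes, and 0 lower, and a median of 0.11. The ribosomal protein gene Rpl29, among the largest falls above, was not on this list. Under median-ratio scaling 7 were higher and 1 lower, and without MEF replicate 1 or without D4 replicate 2 the count was 9 higher.

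Hox genes record the position of a cell along the body. Of 31 tested 8 were higher and 13 lower, a called share of 67.7% beside 67.3% over all genes, so the list as a whole was at the background. Hoxd13, of the distal limb, fell from 9.96, 9.44 and 8.29 to 2.41, 1.89 and 2.36 FPKM (-1.67, SE 0.11, adjusted p = 5.39e-08), and Hoxa13 from 3.04, 3.14 and 2.62 to 1.03, 0.766 and 1.09 (-1.0). Hoxc8 rose from 7.30, 7.06 and 6.82 to 13.2, 13.8 and 14.8 FPKM (0.89). Split at paralog 9, a division chosen after the values were seen, 9 of 12 posterior genes (9 to 13) were lower and 2 higher, and 4 of 19 anterior ones (1 to 8) were lower and 6 higher. All 4 called genes of the Hoxc cluster rose. The Hox code differs between fibroblasts of different body regions, and a difference in the tissue taken and a change in culture cannot be told apart.

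**Figure D5:**
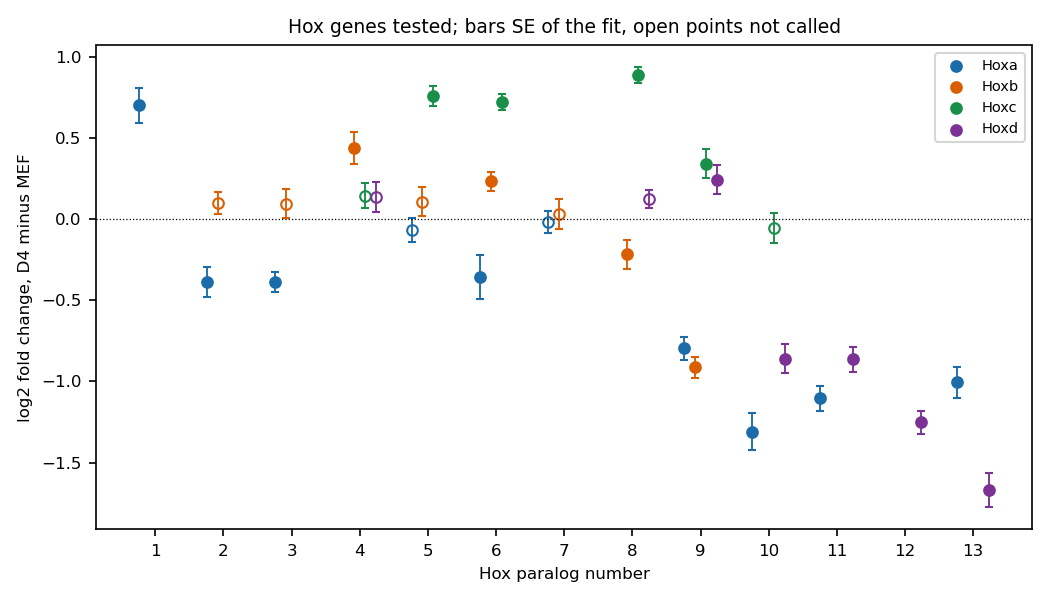
Log2 fold change with the SE of the fit for 31 Hox genes against paralog number, coloured by cluster, open points not called. Posterior genes of the Hoxa and Hoxd clusters lie lowest, down to -1.67 for Hoxd13, and Hoxc8 is highest at 0.89.

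Imprinted genes, expressed from 1 parental copy and many of them tied to fetal growth, counted 15 of 20 lower and 2 higher (median -0.65), beside 30.2% lower over all genes. H19, a noncoding RNA, was at 1933, 1902 and 1763 FPKM in MEF and at 641, 680.0 and 660.4 in D4 (-1.50, SE 0.05, adjusted p = 2.11e-10). Its neighbour Igf2, a fetal growth factor, went from 244, 247 and 237 to 109.7, 114 and 113 FPKM (-1.10). Dlk1 and Mest fell further, from 6.66, 7.44 and 7.14 to 0.875, 0.819 and 0.995 (-2.09) and from 7.82, 8.90 and 8.25 to 1.67, 1.64 and 1.70 (-1.80), and Grb10 had no call (0.05). In the IGF system Igfbp6 rose from 26.3, 32.6 and 30.5 to 414, 448 and 395 FPKM (3.77), opposite to Igfbp5.

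Markers of other cell types gave few members above the filter. Of 12 endothelial genes 3 were tested: Tek, the angiopoietin receptor, rose from 0.0659, 0.154 and 0.121 to 13.3, 13.9 and 13.3 FPKM (3.70), Plvap rose and Egfl7 fell, and Cdh5 and Pecam1 stayed below the filter. Of 12 neural genes 4 were tested and all 4 were higher, with Stmn2, a microtubule regulator of axons, from 1.32, 1.48 and 0.964 to 19.8, 19.8 and 20.1 FPKM (3.22). Over all genes tested 37.1% were higher. Of the tested members, 2 of 3 endothelial and 1 of 4 neural genes passed only through their D4 values, so these counts are no evidence of direction. The neural factors Pax6 and Olig2 were below the filter. Skeletal muscle, endoderm and trophoblast lists had 2, 2 and 1 tested members, and the muscle factor Myod1 was at 0 in all 6 libraries.

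Several genes above overlap another annotated gene, and no source used here says if the strand of a read entered the counting. Pou5f1, Prelp, Cd34, Nkain4, Ccnd1, Timp3, Tagln, Dusp1, Mfap4, Pdgfra, Cdkn1a and H19 have a partner on the opposite strand, so reads of the 2 cannot be told apart if it did not. The antisense Gm19553 over Pou5f1, for example, was at a mean of 0 FPKM in MEF and 68.0 in D4.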

How the data were processed

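The authors deposited one table of FPKM values per gene and library, aligned to mm10 per the submitters' processing notes; no source used here gives the aligner, the counter or the annotation. Per the labels' protocols, poly(A)-selected RNA was made into stranded paired-end libraries of 150-base reads with 15 cycles of PCR, and reads without molecular identifiers are not independent molecules.

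FPKM is not a count, so the values were tested as log2(FPKM + 1) in limma 3.58.1 (R 4.3.3), with an intensity trend and all 12 libraries of the 4 groups sharing one estimate of spread, on genes with at least 1 FPKM in 3 of the 6 libraries. P-values were adjusted over all 14923 genes with the Benjamini-Hochberg method, and fold changes understate the change of low genes. On simulated data, with 200 of 14923 genes changed, 190 of the 200 were recovered, with 19 false calls. In the real comparison 67.3% of genes were called, most by small amounts, so these numbers do not give its error rates. Of the gene IDs 99.6% matched GENCODE M21. Only 44.1% to 46.2% of low values in the 6 libraries fell on whole steps (tolerance 0.01), too few to recover read counts, so depth is an estimate and floors of 3 fragments cover counting error only.

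Gene lists, and the rule that named genes (the 15 at each end, the largest and most abundant of each list, and a set for reprogramming), were chosen with earlier results of these data known; a few genes outside the rule were named after their values were seen. The pseudocount, the filter, the scaling, the variance model, the replicate block and each library were varied in turn. Promoter windows came from RefSeq (GRCm38.p6).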

Additional observations from a re-analysis of the deposited data

How the results depend on the processing

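The counts of called genes moved most with the filter. With a minimum of 5 FPKM, 8677 genes were tested, 3663 were higher and 2672 lower, of which 549 and 426 by at least 2-fold, since fewer genes were tested. The number lower by at least 2-fold was 1093 with a pseudocount of 0.1 and 1138 with voom on recovered fragments, against 727 reported; both change how low values enter the fold. Leaving out each library in turn gave 5239 to 5430 genes higher and 4195 to 4312 lower, with 875 to 901 higher and 724 to 740 lower by at least 2-fold. With the replicate block 5253 were higher and 4231 lower. Same-numbered libraries did not deviate together across the genes tested (correlations of -0.041, -0.044 and -0.045). These correlations cannot show whether same-numbered libraries shared a culture or a batch. Higher genes made up 55.2% of calls as reported, 48.1% with median-ratio scaling and 49.1% with quantile normalization. Ribosomal protein genes had 7 higher with the replicate block against 14 reported, and interferon-stimulated genes 21 lower against 25. Of 198 called genes named in the text, 194 kept their direction and call in all of the 19 other settings that tested them; Col4a2, Ep300, Ifit3 and Ifit3b lost the call in at least 1, and Mmp2, Vim and Zeb1, not called as reported, passed in at least 1. The cause was not tested. Depth limits what can be said of genes under 1 FPKM, and 3 against 3 libraries cannot go below p = 0.1 in an exact test of one gene.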
